A study of Mus musculus with 8 samples.

Results

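Interferon-high macrophages were chosen by measured UMI counts in single-cell RNA sequencing of MC38 tumours, grown from a colon carcinoma cell line of the mouse, after CD45+ immune cells had been sorted. A barcode was a member when it held at least 8 unique molecular identifiers (UMIs, each standing for 1 captured transcript) of Cxcl9, Ifit2, Ifit3 and Rsad2 together and at least 10 UMIs of the C1q chains C1qa, C1qb and C1qc. It could hold at most 2 UMIs of the resident macrophage genes Folr2, Cbr2 and Fcrls and at most 3 of the monocyte genes Ly6c2 and Plac8. At most 1 UMI was allowed of the T cell genes Cd3d, Cd3e and Cd3g, of the dendritic cell genes Xcr1 and Clec9a, and of the cycling genes Mki67, Top2a and Birc5. This gave 3002 members among 37757 barcodes of 4 libraries. Of the libraries, 2 came from LNP-Sirpa treated and 2 from control tumours, all of wild-type genotype and under 1 batch label. The series title speaks of SIRPα being degraded in the tumour, while what control animals were given, the ages of the mice and the time of sampling are not in the labels. Whether libraries of a group came from separate animals is not stated either, so a p-value here reflects the spread between libraries, which may be technical. The 4 libraries held from 68654004 to 90789729 UMIs.

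Macrophages read interferons through receptors that switch on overlapping sets of genes. Type I interferons act on the interferon-stimulated response element (ISRE), which drives antiviral genes such as Ifit2, Ifit3 and Rsad2. Interferon gamma, made by activated T and NK cells, acts mainly on the GAS element, and in tumour macrophages it is known for inducing Cxcl9, a chemokine that draws T cells bearing CXCR3. SIRPα, the product of Sirpa, restrains phagocytes when it binds CD47 on other cells.

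The promoters of the genes in the rule hold the core letters of these elements unevenly. Shown are the 250 bases before the transcription start of Cxcl9, of the antiviral genes Ifit3 and Rsad2, of Isg15, a ubiquitin-like antiviral gene outside the rule, and of Serpina3g, a serine protease inhibitor outside the rule. All are from RefSeq on GRCm38.p6, another build than the GRCm39 of the count files, and are printed on the gene's strand. Capitals mark the ISRE core, GAAANNGAAA on either strand, or the GAS letters TTCNNNGAA, which read the same on both strands.
Cxcl9 (chr5:92328080-92328329, minus strand): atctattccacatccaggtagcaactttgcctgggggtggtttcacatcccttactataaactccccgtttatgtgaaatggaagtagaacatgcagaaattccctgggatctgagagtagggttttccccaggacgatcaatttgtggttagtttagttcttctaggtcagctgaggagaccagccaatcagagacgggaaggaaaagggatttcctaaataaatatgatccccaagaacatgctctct
Ifit3 (chr19:34583279-34583528, plus strand): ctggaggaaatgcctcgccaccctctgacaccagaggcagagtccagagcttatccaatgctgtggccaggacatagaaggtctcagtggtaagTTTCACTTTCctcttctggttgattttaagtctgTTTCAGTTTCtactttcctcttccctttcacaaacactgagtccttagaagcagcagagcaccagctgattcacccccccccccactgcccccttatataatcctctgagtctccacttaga
Rsad2 (chr12:26456453-26456702, minus strand): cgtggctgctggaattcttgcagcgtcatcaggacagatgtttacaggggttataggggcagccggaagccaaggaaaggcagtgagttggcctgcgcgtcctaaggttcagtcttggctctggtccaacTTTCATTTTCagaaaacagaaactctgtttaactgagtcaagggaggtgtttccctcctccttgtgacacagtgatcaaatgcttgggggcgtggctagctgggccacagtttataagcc
Isg15 (chr4:156200819-156201068, minus strand): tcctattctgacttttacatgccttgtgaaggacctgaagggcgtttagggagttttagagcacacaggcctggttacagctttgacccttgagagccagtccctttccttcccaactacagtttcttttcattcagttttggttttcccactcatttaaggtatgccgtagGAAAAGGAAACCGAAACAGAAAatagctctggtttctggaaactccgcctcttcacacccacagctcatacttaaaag
Serpina3g (chr12:104235897-104236146, plus strand): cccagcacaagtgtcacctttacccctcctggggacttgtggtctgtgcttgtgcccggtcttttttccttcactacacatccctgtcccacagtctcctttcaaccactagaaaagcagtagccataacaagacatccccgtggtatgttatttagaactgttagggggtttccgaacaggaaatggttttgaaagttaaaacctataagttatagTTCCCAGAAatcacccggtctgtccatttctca
Of 32851 promoters in the RefSeq table, 2.98% held the ISRE core and 7.02% the GAS letters in this window. Ifit3 held 2 ISRE cores, Rsad2 held 1 and Isg15 held 3 that overlap each other. Serpina3g held 1 GAS match, starting at base -33 from the transcription start. Cxcl9 had neither set of letters here, and of the 2 promoters listed for Ifit2 neither had an ISRE core and 1 had a GAS match at base -241. Calhm6 and Slfn5, the markers outside the rule, each held 1 ISRE core. Among the 15 genes that stood highest in members over interferon-low macrophages in every library, 12 had a promoter in the table, 7 of these with an ISRE core and 2 with GAS letters. A match describes letters in this window only. Elements with other letters were not searched for, so the lack of a match, as in Cxcl9, does not show that an interferon element is missing.

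Members made up 11.6% (95% Wilson interval 11.02 to 12.26) and 13.6% (12.92 to 14.33) of all barcodes in LNP-Sirpa replicates 1 and 2, against 0.772% (0.598 to 0.997) and 4.73% (4.35 to 5.14) in control replicates 1 and 2. These are 1203 and 1226 barcodes in the LNP-Sirpa libraries and 58 and 515 in the control libraries. Both LNP-Sirpa libraries lay above both controls, and the controls differed from each other more than the LNP-Sirpa libraries did. The mean share was 12.6 ± 1.40% in LNP-Sirpa and 2.75 ± 2.80% in control libraries (SD, n = 2 each), a 4.59-fold ratio. On the log2 scale this ratio was 2.20, and leaving out control replicate 1 gave 1.42 and leaving out control replicate 2 gave 4.03. The rule used the genes that set this share, so the share is a description and has no test; 2 against 2 libraries could not go below 0.3333 in an exact permutation test. Intervals cover counting error only.

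The same order held among the C1q macrophages that passed every gate but the interferon one. Members were 63.2% and 44.9% of these in the LNP-Sirpa libraries and 4.56% and 18.4% in the control libraries. Interferon-low macrophages, with at most 2 UMIs of the 4 interferon genes, numbered 279 and 949 in LNP-Sirpa and 1138 and 1924 in control libraries. High interferon sums were not limited to barcodes poor in resident genes. Of resident-like macrophages, which hold at least 5 UMIs of Folr2, Cbr2 and Fcrls and pass the other exclusions, 67.6% and 56.7% reached 8 interferon UMIs in LNP-Sirpa and 5.76% and 18.3% in control libraries. Resident-like barcodes themselves numbered 336 and 134 in LNP-Sirpa and 1598 and 1916 in control libraries.

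**Figure D1:**
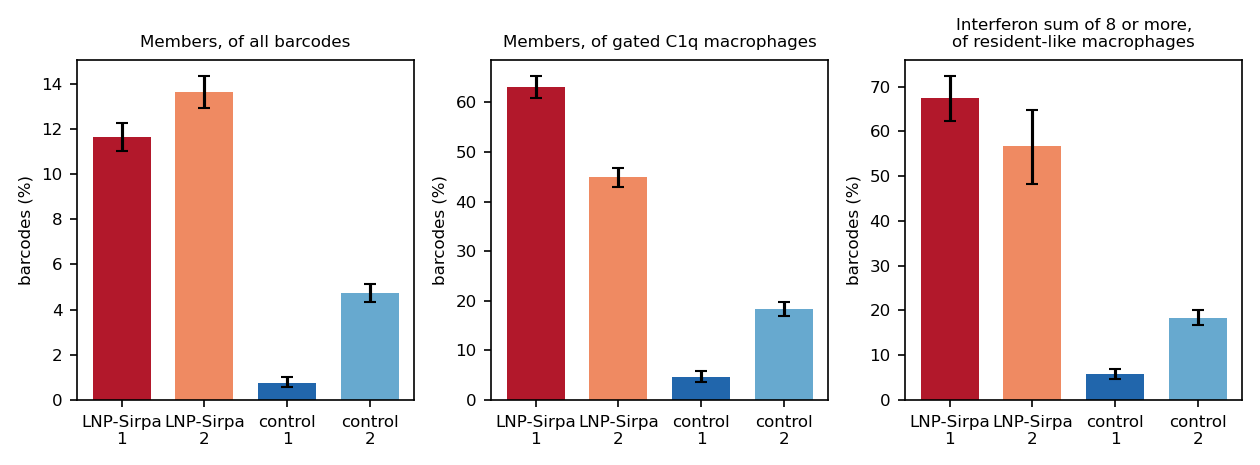
Percent of barcodes per library with 95% Wilson intervals, for members of all barcodes, members of gated C1q macrophages, and resident-like macrophages with an interferon sum of at least 8 UMIs. In all panels both LNP-Sirpa libraries stand above both control libraries, with control replicate 1 lowest (0.772% of all barcodes).

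The gates cut through a larger interferon-positive population. Barcodes with enough C1q and interferon UMIs numbered 3926 and 2583 in LNP-Sirpa and 373 and 1708 in control libraries, and members were 30.6% and 47.5% of them in LNP-Sirpa and 15.5% and 30.2% in control libraries. The remaining barcodes failed 1 or more gates. In LNP-Sirpa replicate 1, 1336 failed the T cell gate, 1271 the monocyte gate, 1153 the resident gate and 1108 the cycling gate. In control replicate 2 the resident gate took the most, 996 barcodes, and the monocyte gate 117.

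Members were deeper barcodes than interferon-low macrophages. Their median was 7006 and 9152.5 UMIs in the LNP-Sirpa libraries and 9063.5 and 7324 in the control libraries, against 2320 and 5262 (LNP-Sirpa) and 4763.5 and 4500.5 (control) in interferon-low macrophages. Resident-like macrophages had 8610 and 11512.5 UMIs (LNP-Sirpa) and 8335.5 and 7883.5 UMIs (control), more than members in all but control replicate 1. Because depth differed between classes, the share was also taken at equal depth. Every barcode was thinned to 3000 UMIs, with thresholds of 4 interferon and 5 C1q UMIs. Members were then 24.3% and 24.4% of the barcodes kept in LNP-Sirpa and 2.31% and 9.77% in control libraries. The exclusion limits were not lowered with the depth, so they were looser on thinned barcodes. In LNP-Sirpa replicate 1, gated macrophages numbered 2494 of 7438 thinned barcodes, against 1904 of 10348 by the rule. The thinned shares thus describe a wider population than the members of the rule. At the edge of the threshold, barcodes with a sum of 8 or 9 numbered 139 and 106 in LNP-Sirpa and 6 and 51 in control libraries, and those with 6 or 7 numbered 137 and 166 in LNP-Sirpa and 16 and 88 in control libraries. Gbp2, an interferon-induced GTPase, stood at 363 and 279 CPM (UMIs per 1000000 UMIs of the class in that library) in LNP-Sirpa and 675 and 179 CPM in control barcodes just inside. Just outside it stood at 356 and 238 CPM in LNP-Sirpa and 364.6 and 179 CPM in control barcodes. Gbp2 thus lay at similar levels on both sides of the threshold in 3 libraries, and control replicate 1 held only 6 barcodes just inside. Between libraries, 830 to 1242 cell names were shared, and 0 to 16 among members; names are cell numbers and not barcode sequences.

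Checked against its name, the population was led by Cxcl9. The gene supplied 73.2% and 86.8% of the rule's interferon UMIs in LNP-Sirpa members and 71.4% and 89.4% in control members. Members in which Cxcl9 alone reached 8 UMIs, while Ifit2, Ifit3 and Rsad2 together did not, were 48.1% and 75.8% in LNP-Sirpa and 62.1% and 83.3% in control libraries. Those in which Ifit2, Ifit3 and Rsad2 reached 8 while Cxcl9 did not were 15.9% and 9.71% in LNP-Sirpa and 27.6% and 10.9% in control libraries. Both reached 8 in 25.9% and 9.79% of LNP-Sirpa members and in 5.17% and 3.50% of control members. In the control libraries these were only 3 of 58 and 18 of 515 barcodes. The rule chose members by these genes, so the shares are a description and have no test. No UMI of Ifit2, Ifit3 or Rsad2 was seen in 7.07% and 38.5% of LNP-Sirpa members and in 43.1% and 64.1% of control members. All 4 genes were detected in 32.2% of members of LNP-Sirpa replicate 1 and in 5.95% to 8.62% in the other 3 libraries. The Ifit side of the name was thus most widespread in LNP-Sirpa replicate 1.

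**Figure D2:**
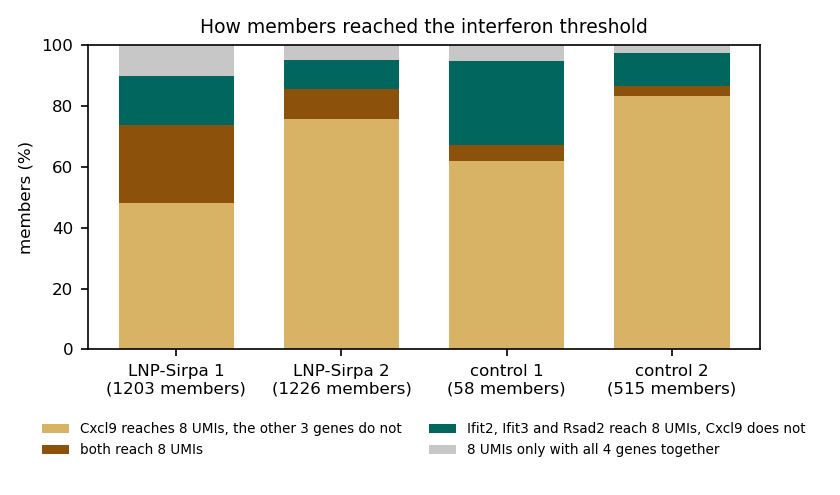
Percent of members by how they reached 8 UMIs, per library: Cxcl9 alone, Cxcl9 and the Ifit2, Ifit3 and Rsad2 sum both, that sum alone, or only all 4 genes together. Members positive for both are most frequent in LNP-Sirpa replicate 1 (25.9%) and least in control replicate 2 (3.50%).

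Cxcl9 RNA was also found in T cell barcodes, those with at least 3 Cd3 UMIs and fewer than 10 C1q UMIs. Their median C1q was 4 and 3 UMIs in LNP-Sirpa and 5 and 5 UMIs in control libraries. Droplets that also held macrophage RNA were thus not kept out. At least 1 Cxcl9 UMI was carried by 57.9% and 45.1% of them in LNP-Sirpa and 7.53% and 26.2% in control libraries. Their median depth was 4955 and 4146 UMIs (LNP-Sirpa) and 4078.5 and 4449.5 UMIs (control). At the level of 8 Cxcl9 UMIs the share of T cell barcodes was small, 1.90% and 2.38% in LNP-Sirpa libraries. In control libraries it was 0 of 146 and 0 of 370, which allows shares of up to 2.05% and 0.811%. Members reached that level in 74.0% and 85.6% (LNP-Sirpa) and 67.2% and 86.8% (control). Among members the CPM of Cxcl9 overlapped between the groups, at 3873 and 3543 in LNP-Sirpa and 2669 and 3891 in control libraries. Rsad2 stood at 937 and 428 CPM in LNP-Sirpa members and 769 and 326 CPM in control members, Ifit2 at 288 and 69.6 CPM (LNP-Sirpa) and 149 and 71.4 CPM (control), and Ifit3 at 191 and 39.6 CPM (LNP-Sirpa) and 153 and 62.0 CPM (control). For these 3 genes replicate 2 of either group lay below replicate 1 of both.

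Calhm6 and Slfn5, the markers that the rule did not use, were higher in members than in interferon-low macrophages of the same library in all 4 libraries. Calhm6, a channel protein gene, stood at 144 and 57.0 CPM in LNP-Sirpa members and 26.1 and 43.5 CPM in control members, against 36.0 and 9.24 CPM (LNP-Sirpa) and 3.41 and 10.7 CPM (control) in interferon-low macrophages. Slfn5, of the Schlafen family, stood at 303 and 76.5 CPM in LNP-Sirpa members and 114 and 75.9 CPM in control members. In interferon-low macrophages it stood at 188 and 42.8 CPM (LNP-Sirpa) and 28.5 and 25.4 CPM (control). Resident-like macrophages had Slfn5 at 281 and 91.8 CPM (LNP-Sirpa) and 58.2 and 42.9 CPM (control), above members in LNP-Sirpa replicate 2. Of the other cell types, the summed markers of tumour epithelium stayed at or below 5.58 CPM in members. Of these 8 markers, 5 were at 0 in every library. Markers of several other types were higher. Dendritic cell markers outside the rule summed to 144 and 18.0 CPM in LNP-Sirpa and 342 and 104 CPM in control members. NK cell markers summed to 270 and 89.5 CPM (LNP-Sirpa) and 100.5 and 117 CPM (control). T cell markers outside the rule summed to 175 and 182 CPM (LNP-Sirpa) and 156 and 115 CPM (control). Neutrophil markers summed to 234 and 83.4 CPM (LNP-Sirpa) and 208 and 90.4 CPM (control). Their part in the members' values was not tested.

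Genes outside the rule also stood apart in members. The values here are log2 ratios of members over interferon-low macrophages within a library, with 10 CPM added, and they are a description, since the rule split the classes. Of 8050 genes with at least 10 CPM, 10.7% were higher in members in all 4 libraries and 30.7% lower, and the median gene stood at -0.09. The 15 genes with the largest lowest ratio were Serpina3g, Cxcl10, Ifit1, Calhm6, Ccl5, Ccl8, Ifi205, C3, Slamf8, Cfb, Iigp1, Gbp2, Oasl1, Isg15 and Fgl2. Serpina3g had 170 and 119 CPM in LNP-Sirpa members and 98.6 and 149 CPM in control members, and its ratio lay between 1.96 and 2.41. Serpina3g was not particular to members. T cell barcodes had more of it in every library, at 254 and 180 CPM (LNP-Sirpa) and 280 and 337 CPM (control). Cxcl10, the other CXCR3 ligand of the set, had 769 and 826 CPM in LNP-Sirpa members and 676 and 524 CPM in control members, with ratios from 1.58 to 2.74. In interferon-low macrophages Cxcl10 had 250.1 and 184 CPM (LNP-Sirpa) and 92.6 and 99.5 CPM (control), below the members of every library.

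The T cell attractant Ccl5 had 907 and 656 CPM in LNP-Sirpa members and 1424 and 710 CPM in control members, with ratios from 1.33 to 2.70. T cell barcodes had 2067 and 5707 CPM of Ccl5 (LNP-Sirpa) and 1368 and 2728 CPM (control), above members in all but control replicate 1. Ccl8, a monocyte chemokine, had 1133 and 599 CPM in LNP-Sirpa members and 506 and 1005 CPM in control members, with ratios from 1.29 to 2.20. It was not particular to members. Resident-like macrophages had more Ccl8 in every library, at 2989 and 3476.5 CPM (LNP-Sirpa) and 577 and 1812 CPM (control). Of the 19 genes of the chemokine and chemokine receptor list, which leaves out Cxcl9 and Cxcl10, 10 were higher in members in all 4 libraries and 2 lower. Over all genes, 10.7% were higher and 30.7% lower. Of the 3 chemokines named here only Cxcl10 was above both controls in both LNP-Sirpa libraries. The complement genes C3, the central component, and Cfb, the factor B of the alternative pathway, had ratios from 1.22 to 1.39 and from 1.14 to 2.33. C3 stood at 545 and 289 CPM in LNP-Sirpa members and 132 and 215 CPM in control members. Of the complement list, 2 of 7 genes were higher in all 4 libraries and 0 lower, beside the same shares of 10.7% and 30.7% over all genes.

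**Figure D3:**
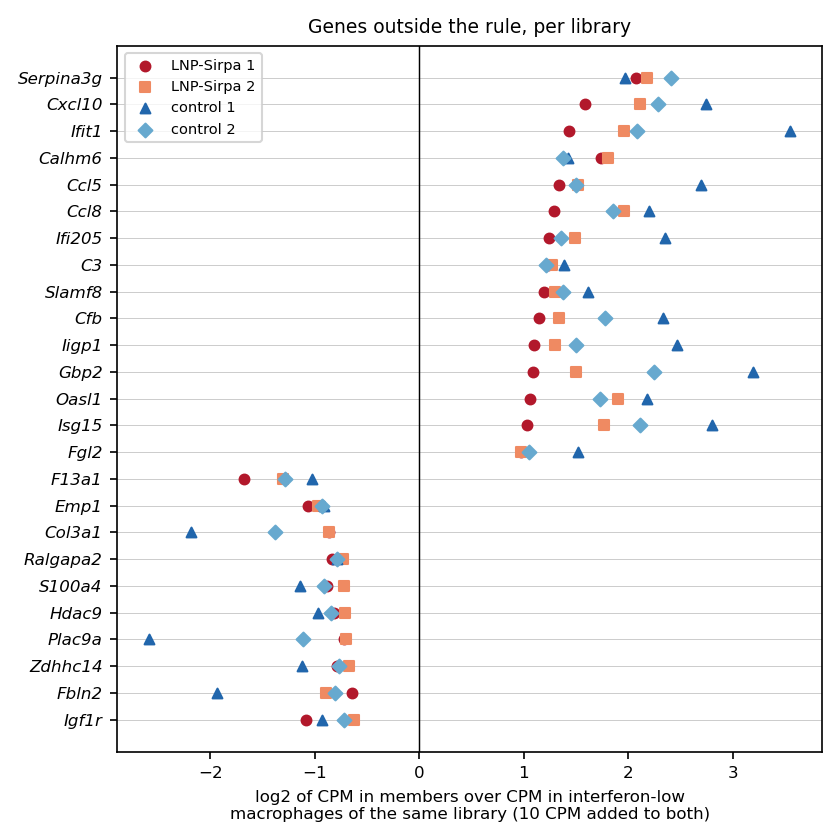
Log2 ratio of CPM in members over interferon-low macrophages of the same library (10 CPM added to both) for 15 genes highest and 10 genes lowest in members, 1 symbol per library. The ratios of interferon genes such as Isg15, Gbp2 and Ifit1 are smallest in LNP-Sirpa replicate 1 and largest in control replicate 1.

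Both interferon lists were raised in members over interferon-low macrophages, where 10.7% of all genes were higher in all 4 libraries and 30.7% lower. Of the type I interferon response list, 24 of 28 genes were higher in all 4 libraries, with list medians of 0.35 and 0.59 in LNP-Sirpa and 1.17 and 0.96 in control libraries. Of the interferon gamma response list, 20 of 21 were higher, with medians of 0.76 and 0.82 in LNP-Sirpa and 1.33 and 1.02 in control libraries. Interferon-low macrophages of the LNP-Sirpa libraries themselves held more of these transcripts, Isg15 at 944 and 189 CPM in LNP-Sirpa, against 91.3 and 83.6 CPM in control libraries. In LNP-Sirpa libraries the type I list summed to 7558 and 3466 CPM in resident-like macrophages, near the 8849 and 3794.5 CPM of members. In control libraries it summed to 1828 and 1522 CPM, against 3370.5 and 2382 CPM in members. The interferon gamma list summed to 3686 and 2601 CPM (LNP-Sirpa) and 1114 and 1596 CPM (control) in resident-like macrophages. In members it summed to 4734 and 3394 CPM (LNP-Sirpa) and 3190 and 2864 CPM (control). All 8 MHC class II genes with at least 10 CPM were higher in members, with medians from 0.65 to 0.77, and 13 of 17 MHC class I genes. The class I genes summed to 7999 and 7041 CPM in LNP-Sirpa resident-like macrophages, against 8824.5 and 7591 CPM in members. In control libraries they summed to 4153 and 5328 CPM in resident-like macrophages, against 6650 and 6737 CPM in members. H2-Ab1, a class II beta chain, had 5969 and 4790 CPM in LNP-Sirpa members and 4653 and 8187 CPM in control members, against 3348 and 2759 CPM (LNP-Sirpa) and 2677 and 4142 CPM (control) in interferon-low macrophages. Of the interferon ligand and receptor list, 3 of 16 genes were higher and 3 lower. Ifnar1 stood at 97.7 and 80.1 CPM in LNP-Sirpa members and 93.1 and 99.3 CPM in control members, with ratios from -0.13 to 0.28.

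Alternative activation genes were lower in members for 7 of 14 and higher for 3, where 30.7% of all genes were lower and 10.7% higher. Mrc1, the mannose receptor, had 295 and 226 CPM in LNP-Sirpa members and 186 and 263 CPM in control members, below the interferon-low level of every library by 0.40 to 0.70 on the log2 scale. Glycolysis and hypoxia genes were higher for 1 of 22 and lower for 1. By the same rule turned round, a choice made after the values were seen, the genes lowest in members were F13a1, Emp1, Col3a1, Ralgapa2, S100a4, Hdac9, Plac9a, Zdhhc14, Fbln2 and Igf1r. F13a1, the coagulation factor XIII subunit that macrophages make, had 70.1 and 80.2 CPM in LNP-Sirpa members and 123 and 92.3 CPM in control members, against 247 and 212 CPM (LNP-Sirpa) and 261 and 239 CPM (control) in interferon-low macrophages. S100a4, a calcium-binding protein gene, had 438 and 568 CPM in LNP-Sirpa members and 912 and 635 CPM in control members, with ratios from -1.14 to -0.72. Col3a1 and Fbln2 are matrix genes of fibroblasts. The 10 fibroblast markers summed to 404 and 82.8 CPM in LNP-Sirpa members and 609 and 415 CPM in control members. In interferon-low macrophages they summed to 499 and 188 CPM (LNP-Sirpa) and 2201 and 1266 CPM (control). None of the 10 was at 0 in LNP-Sirpa replicate 1, and 1, 5 and 1 were at 0 in members of LNP-Sirpa replicate 2 and control replicates 1 and 2. The part of fibroblast RNA in these ratios was not tested.

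Serpina3g and F13a1 were also taken at both ends of the rule's sum. In barcodes with at least 32 interferon UMIs, Serpina3g stood at 228 and 186 CPM in LNP-Sirpa and 125 and 249 CPM in control libraries. In those with none it stood at 33.5 and 14.5 CPM in LNP-Sirpa and 18.5 and 17.6 CPM in control libraries. F13a1 stood at 43.7 and 61.1 CPM (LNP-Sirpa) and 55.0 and 54.0 CPM (control) at the top and at 229 and 188 CPM (LNP-Sirpa) and 286 and 272 CPM (control) with none. Sirpa stood at 414 and 312 CPM (LNP-Sirpa) and 320 and 425 CPM (control) at the top and at 631 and 358 CPM (LNP-Sirpa) and 435 and 505 CPM (control) with none, lower at the top in all 4 libraries. Levels between the ends did not follow the sum in every gene, and Ccl5 in control replicate 2 stood at 2706 CPM at a sum of 8 or 9 but 468 CPM at the top. The deepest barcodes fill the top of this range, with a median of 9167.5 and 11391 UMIs (LNP-Sirpa) and 12792 and 9234 UMIs (control), and the part of depth was not tested.

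Members divided by which arm led them differed in type I interferon genes. A member was called Ifit/Rsad2-led when Ifit2, Ifit3 and Rsad2 gave over 50% of its interferon UMIs, which took 316 and 166 members in LNP-Sirpa and 19 and 70 in control libraries, and Cxcl9-led otherwise. The division uses genes of the rule and was made after the data were seen, so the contrast of the arms is a description. Ifit/Rsad2-led members had more Oasl1, an interferon-induced gene that restrains translation of Irf7 in the mouse, at 1052 and 714 CPM in LNP-Sirpa and 370 and 483 CPM in control libraries. Cxcl9-led members had 557 and 214 CPM in LNP-Sirpa and 23.3 and 45.9 CPM in control libraries. In all 4 libraries the Cxcl9-led level lay above that of interferon-low macrophages, which was 323 and 65.7 CPM in LNP-Sirpa and 19.0 and 20.6 CPM in control libraries. Isg15 followed the same order, with 2460 and 1338 CPM (LNP-Sirpa) and 1925 and 1464 CPM (control) in Ifit/Rsad2-led members. In Cxcl9-led members it stood at 1757 and 579 CPM (LNP-Sirpa) and 215 and 268 CPM (control).

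Serpina3g and MHC class II went with the Cxcl9 arm. Serpina3g stood at 190 and 132 CPM (LNP-Sirpa) and 119 and 164 CPM (control) in Cxcl9-led members, against 114 and 21.0 CPM (LNP-Sirpa) and 46.3 and 25.2 CPM (control) in Ifit/Rsad2-led members. H2-Ab1 stood at 6473 and 4992 CPM (LNP-Sirpa) and 5314 and 8660 CPM (control) in Cxcl9-led members, and at 4531 and 3275 CPM (LNP-Sirpa) and 2963 and 4152 CPM (control) in Ifit/Rsad2-led members. Cxcl10 went with the Ifit arm in every library, at 1037 and 990 CPM (LNP-Sirpa) and 1244 and 980 CPM (control), against 676 and 805 CPM (LNP-Sirpa) and 453 and 470 CPM (control) in Cxcl9-led members.

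LNP-Sirpa and control libraries were then compared within each arm. In Cxcl9-led members 25 of the 28 type I genes tested had both LNP-Sirpa libraries above both controls, where 17.4% of all genes did and 18.0% had both below, and the list's median log2 ratio was 1.69, against 0.01 for all genes. In Ifit/Rsad2-led members 4 of 28 had both LNP-Sirpa libraries above and 2 both below, where 24.5% and 16.4% of all genes did, and the median was 0.11. The division sets a floor on Ifit2, Ifit3 and Rsad2 in Ifit/Rsad2-led members of both groups, with Rsad2 at 2228 and 2042 CPM in LNP-Sirpa and 2553 and 2506 CPM in control libraries. Its part in the low median of that arm was not tested, and nothing is read from the gap between the medians. Oasl1 gave 3.28 ± 0.48 (SE) in Cxcl9-led and 0.97 ± 0.25 in Ifit/Rsad2-led members. No gene passed edgeR's quasi-likelihood test with Benjamini-Hochberg adjustment in either subset, and the difference between the arms was not tested. In Cxcl9-led members 472 genes were higher and 258 lower at an unadjusted p under 0.05, and in Ifit/Rsad2-led members 278 and 207. DESeq2 was not run on these subsets. Rsad2, a gene of the rule and of the division, stood at 485 and 213 CPM (LNP-Sirpa) and 69.9 and 70.4 CPM (control) in Cxcl9-led members. The division limits it there only relative to Cxcl9, which stood at 4940 and 3946 CPM (LNP-Sirpa) and 3569 and 4277 CPM (control). The Rsad2 values are thus a description, and the part of the division in them was not tested. The T cell barcodes of the same libraries carried Oasl1 at 144 and 38.6 CPM (LNP-Sirpa) and 17.3 and 10.2 CPM (control), and the part of free RNA was not tested.

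**Figure D4:**
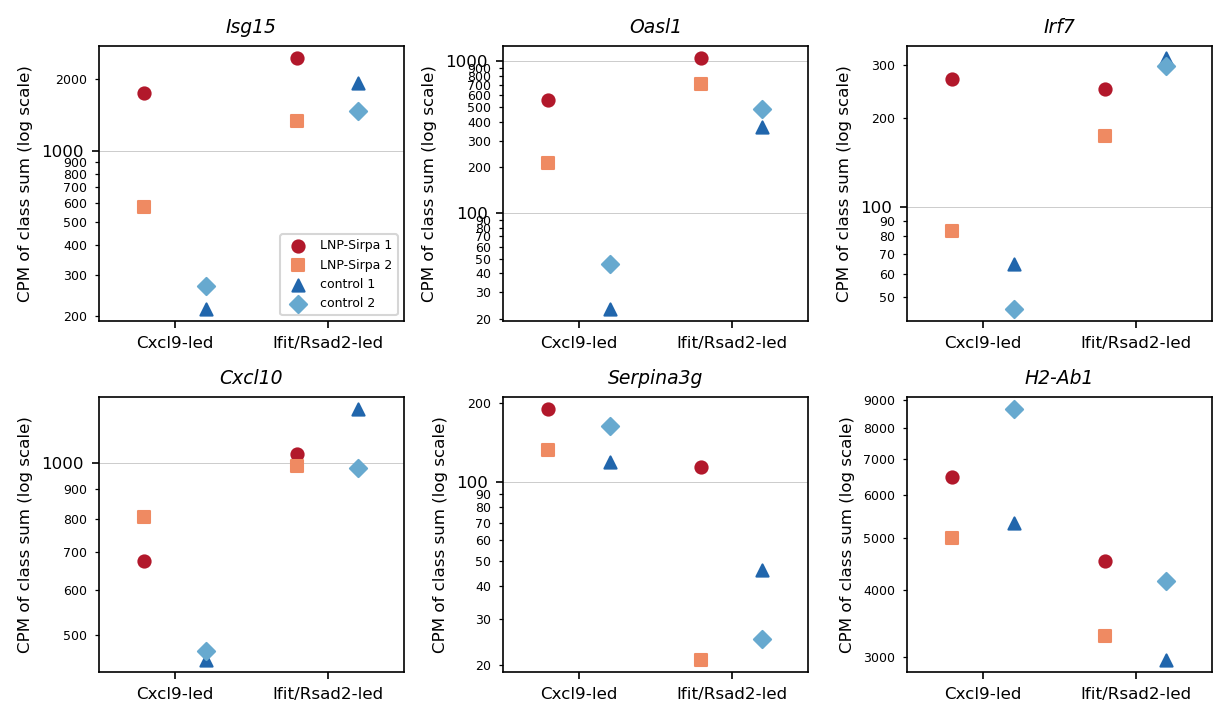
CPM on a log scale of 6 genes in Cxcl9-led and Ifit/Rsad2-led members, 1 symbol per library. Isg15, Oasl1 and Irf7 of Cxcl9-led members are higher in both LNP-Sirpa libraries than in both controls, while in Ifit/Rsad2-led members Isg15 overlaps between the groups and Irf7 lies higher in the controls.

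Over all members, LNP-Sirpa was compared with control on UMIs summed per library, 9539734 and 11766731 in the LNP-Sirpa libraries and 537316 and 4160779 in the control libraries. Of 11952 genes, Saa3 and Nos2 were higher in LNP-Sirpa and none was lower (edgeR quasi-likelihood test, Benjamini-Hochberg adjustment over all genes), 0.0167% and 0.0% of the genes tested. At an unadjusted p under 0.05, 464 genes were higher and 241 lower, and DESeq2 called 26 higher and 5 lower of 8708 genes (0.299% and 0.0574%, or 0.356% in all). Saa3, an acute-phase serum amyloid gene, had 42.5 and 25.6 CPM in LNP-Sirpa members and 1.86 and 2.64 CPM in control members, with 1 and 11 UMIs in the controls (log2 3.71 ± 0.40 SE, edgeR adjusted p = 0.00542). Nos2, the inducible nitric oxide synthase of activated macrophages, had 147 and 171 CPM in LNP-Sirpa members and 42.8 and 34.8 CPM in control members (log2 2.10 ± 0.27, edgeR adjusted p = 0.0214). In both genes the groups lay far apart. Both lost the threshold when either control library was left out, with adjusted p of 0.0973 and 0.373 for Saa3 and 0.347 and 0.373 for Nos2 without control replicate 1 and 2. The differences stayed about as large, at log2 3.64 and 4.22 for Saa3 and 2.19 and 1.97 for Nos2. The rises, LNP-Sirpa against control, were not limited to members. Nos2 had 107 and 72.8 against 8.14 and 11.98 CPM in interferon-low and 59.1 and 45.03 against 6.88 and 8.78 CPM in resident-like macrophages. Saa3 had 21.8 and 7.62 against 1.18 and 3.24 CPM in interferon-low and 49.1 and 33.2 against 2.56 and 10.4 CPM in resident-like macrophages. T cell barcodes carried Nos2 at 52.95 and 40.4 against 2.89 and 0.536 CPM. The part of free RNA was not tested. With 1 LNP-Sirpa library left, whose spread is then assumed to be that of the controls, 119 genes were higher and 120 lower without LNP-Sirpa replicate 1 and 180 and 37 without LNP-Sirpa replicate 2, and 0 passed without either control library. Monocyte genes within the limit of the rule stood higher in the LNP-Sirpa members too, Ly6c2 at 40.3 and 30.9 CPM against 14.9 and 9.13 CPM in control members. The 6 monocyte markers outside the rule summed to 394 and 274 CPM in LNP-Sirpa and 346 and 289 CPM in control members, none at 0, and their part in these rises was not tested.

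Sirpa RNA in members overlapped between the groups. It stood at 456 and 332 CPM in LNP-Sirpa members and 335 and 436 CPM in control members (log2 0.02 ± 0.26, edgeR quasi-likelihood adjusted p = 0.99956), and the protein was not measured here. Cd47, the ligand of SIRPα, stood at 354 and 219 CPM in LNP-Sirpa and 184 and 165 CPM in control members and did not pass (log2 0.71 ± 0.26, edgeR adjusted p = 0.621). Both LNP-Sirpa libraries lay above both controls, as for 17.6% of all genes. The same order held outside members, LNP-Sirpa against control. Cd47 had 309 and 198 against 187 and 168 CPM in interferon-low and 331 and 229 against 171 and 170 CPM in resident-like macrophages. T cell barcodes had 422 and 325 against 225 and 232 CPM. Without LNP-Sirpa replicate 2, which leaves 1 LNP-Sirpa library, the log2 ratio of Cd47 in members was 0.93.

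No gene of the interferon lists passed the test between the groups. Of the type I list, 12 of 28 genes had both LNP-Sirpa libraries above both controls and 0 below, where 17.6% of all genes lay above and 16.5% below, and 0 of 28 passed. The list's median log2 ratio was 1.08, against 0.00 for all genes, and 0.42 without LNP-Sirpa replicate 1 or 1.49 without LNP-Sirpa replicate 2. Ifi27l2a, an interferon-induced mitochondrial gene, had 1331 and 718 CPM in LNP-Sirpa members and 328 and 366 CPM in control members (log2 1.54 ± 0.30, edgeR adjusted p = 0.145), and DESeq2 called it (adjusted p = 0.000367). Isg15 had 1939 and 668 CPM in LNP-Sirpa members and 696 and 394 CPM in control members, which overlap (log2 1.24 ± 0.46, edgeR adjusted p = 0.717). The interferon gamma list had a median of 0.46 with 7 of 22 genes above both controls, and 0.23 without LNP-Sirpa replicate 1 or 0.86 without LNP-Sirpa replicate 2. Gbp2 stood at 639 and 494 CPM in LNP-Sirpa and 512 and 379 CPM in control members. MHC class I genes had a median of 0.37, or 0.60 without LNP-Sirpa replicate 2, with 9 of 17 above, among them H2-K1 at 1909 and 1530 CPM in LNP-Sirpa and 1219 and 1451 CPM in control members. B2m, the light chain of class I, stood at 2979 and 3034 CPM in LNP-Sirpa and 2503 and 2540.2 CPM in control members. MHC class II genes had a median of -0.10 and overlapped in all 10, Cd74, the invariant chain, at 14190 and 11953 CPM in LNP-Sirpa and 10867 and 17846 CPM in control members. Schlafen genes had a median of 1.00 with 2 of 7 above, and 0.24 without LNP-Sirpa replicate 1 or 1.59 without LNP-Sirpa replicate 2.

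Among other macrophage programmes, 2 of 15 inflammatory genes rose, Saa3 and Nos2, and the list's median was 0.26. Of 20 cytokine and receptor genes 0 passed, and Il1b, an inflammatory cytokine, stood at 1072 and 1551 CPM in LNP-Sirpa and 1091 and 1932 CPM in control members. Arg1, the arginase of alternative activation, stood at 2156 and 5451 CPM in LNP-Sirpa members and 1857 and 1134 CPM in control members (log2 1.43 ± 0.51, edgeR adjusted p = 0.701). Here the LNP-Sirpa libraries differed from each other by more than the lower of them differed from the controls. Lipid-associated genes had a median of -0.16 with 6 of 19 below both controls and 0 above, where 16.5% of all genes lay below and 17.6% above. Apoe spanned 4760 and 3751 CPM in LNP-Sirpa and 2086 and 7322 CPM in control members. The checkpoint ligand gene Cd274 stood at 294 and 274 CPM in LNP-Sirpa and 270 and 164 CPM in control members. Ccl4, a chemokine for T cells and monocytes, stood at 1641 and 1890 CPM in LNP-Sirpa and 1098 and 1212 CPM in control members (log2 0.63 ± 0.29, edgeR adjusted p = 0.844). Csf1r, the receptor for macrophage colony-stimulating factor, stood at 349 and 333 CPM in LNP-Sirpa and 428 and 530.4 CPM in control members (log2 -0.48 ± 0.26, edgeR adjusted p = 0.893). Fcer1g, the Fc receptor signalling chain, stood at 3341 and 4137 CPM in LNP-Sirpa and 3073 and 3543 CPM in control members, and Gapdh, a glycolytic enzyme gene, at 3718 and 5596 CPM in LNP-Sirpa and 5126 and 3790.4 CPM in control members. Of the 25 phagocytosis, 23 glycolysis and hypoxia, 18 cell death and 7 complement genes tested, 0 passed.

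The effect of LNP-Sirpa in members was then set against its effect in interferon-low macrophages of the same libraries, as the interaction of treatment and class with the library as a block. Of 13001 genes, 19 had a higher effect in members and 32 a lower one, 0.146% and 0.246% of the genes tested and 0.392% in all (edgeR quasi-likelihood test, Benjamini-Hochberg adjustment). Of the 32, 4 were the interferon genes of the rule and 13 others were on the interferon lists. Leaving out a library changed these counts: lower effects numbered 9 when control replicate 1 was dropped and 71 when control replicate 2 was. Higher effects numbered 41 with LNP-Sirpa replicate 2 dropped, 29 with control replicate 2 dropped, and 12 with LNP-Sirpa replicate 1 or control replicate 1 dropped. Irf7, a transcription factor that amplifies type I responses, had 265 and 94.1 CPM in LNP-Sirpa members and 136 and 72.1 CPM in control members, against 207 and 65.4 CPM (LNP-Sirpa) and 24.8 and 20.9 CPM (control) in interferon-low macrophages. Its interaction was -1.59 ± 0.23 on the log2 scale (edgeR adjusted p = 3.05e-09). Gbp2 gave -1.49 ± 0.20, Ifi209 -1.58 ± 0.25, Slfn1 -1.36 ± 0.24 and Ifi211 -1.20 ± 0.22, with Slfn1, Ifi211 and Gbp2 no longer past the threshold without control replicate 1 (edgeR adjusted p = 0.0563 for Slfn1, 0.0602 for Ifi211 and 0.0926 for Gbp2). Gbp2 also lost it with barcodes thinned before the rule (-1.08, edgeR adjusted p = 0.129). For these genes LNP-Sirpa and control members were closer to each other than LNP-Sirpa and control interferon-low macrophages were. The classes were split on an interferon sum, which sets a floor in members and a ceiling in interferon-low barcodes of both groups, and its part in these values was not tested.

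The higher effects in members were led by mast cell genes, Mcpt2, Cpa3, Cma1, Tpsb2 and Mcpt4, at 5.95, 4.03, 3.26, 2.80 and 2.77 on the log2 scale. Mcpt2, a mast cell protease, had 171 and 1.36 CPM in LNP-Sirpa members and 0 and 0.721 CPM in control members. In interferon-low macrophages it had 367 and 1.30 CPM (LNP-Sirpa) and 161 and 62.8 CPM (control). LNP-Sirpa replicate 1 held nearly all of the Mcpt2 in members. T cell barcodes carried 364.5 and 2.05 CPM of Mcpt2 in LNP-Sirpa and 1.45 and 1.61 CPM in control libraries, and their Cma1, another mast cell protease, stood at 353 and 2.74 CPM (LNP-Sirpa) and 212 and 7.50 CPM (control). With barcodes thinned before the rule, all 5 lost the threshold (edgeR adjusted p of 0.935 to 0.9999). Fibroblast genes Col1a1, Col1a2 and Dcn were also among the 19, beside the fibroblast sums given above, and the part of mast cell or fibroblast RNA was not tested.

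Against resident-like macrophages, whose interferon sum the rule left free, 19 of 12624 genes had a higher effect in members and 39 a lower one, 0.151% and 0.309% of the genes tested and 0.459% in all (edgeR quasi-likelihood test, Benjamini-Hochberg adjustment). Of the 39, 16 were on the interferon lists and 1 was Ifit3 of the rule, whose interferon floor applied to members alone; its part was not tested. Dropping control replicate 2 gave 191 higher and 158 lower effects, dropping control replicate 1 gave 10 and 34, dropping LNP-Sirpa replicate 1 gave 34 and 87, and dropping LNP-Sirpa replicate 2 gave 11 and 45. Irf7 gave -1.96 ± 0.21 (edgeR adjusted p = 4.05e-09), with 254 and 113 CPM (LNP-Sirpa) and 29.7 and 24.0 CPM (control) in resident-like macrophages. Ly6a, an interferon-inducible surface protein gene, stood at 1970 and 1700 CPM in LNP-Sirpa members and 478 and 529 CPM in control members. In resident-like macrophages it stood at 1292 and 1089 CPM (LNP-Sirpa) and 74.1 and 134 CPM (control), an interaction of -1.71 ± 0.17 (edgeR adjusted p = 2.38e-07). It no longer passed at an interferon threshold of 5 UMIs (-1.96, edgeR adjusted p = 0.86) or with the highest doublet scores left out (-1.94, edgeR adjusted p = 0.712). Both classes were higher in LNP-Sirpa libraries, and the control levels were higher in members. Ifi206, Ifi209 and Slfn1 had lower effects too, at -1.90, -1.87 and -1.69. Ifi209 lost the threshold at interferon thresholds of 5 and 12 and with DESeq2's size factors (edgeR adjusted p of 0.0886 to 0.194), and Slfn1 lost it at 5 (edgeR adjusted p = 0.166). Ccl17, a chemokine for CCR4-bearing T cells, stood at 228 and 45.1 CPM in LNP-Sirpa members and 545 and 373 CPM in control members, against 7.58 and 1.18 CPM (LNP-Sirpa) and 51.0 and 41.0 CPM (control) in resident-like macrophages. Its interaction was 1.59 ± 0.29 (edgeR adjusted p = 0.000947), and its level was lower in LNP-Sirpa libraries in both classes. It no longer passed without LNP-Sirpa replicate 1 (1.92, edgeR adjusted p = 0.456), at interferon thresholds of 5 (1.48, 0.908) and 12 (2.00, 0.0897), or with barcodes thinned before the rule (1.18, 0.555). Osbpl8, a lipid transfer protein gene, stood at 462 and 514 CPM in LNP-Sirpa members and 210.3 and 384 CPM in control members, and at 368 and 368.5 CPM (LNP-Sirpa) and 413 and 495 CPM (control) in resident-like macrophages (0.98 ± 0.18, edgeR adjusted p = 0.00213). Without control replicate 1 it gave 0.71 and missed the threshold (edgeR adjusted p = 0.0752). Cacna1d, Hivep2 and Irs2 were the other 3 of at least 50 CPM with the highest effects, at 1.01, 0.98 and 0.91. Each kept its direction but lost the threshold in several alternatives: Cacna1d in 7 (adjusted p of 0.0545 to 0.963), Hivep2 in 4 (0.146 to 0.529) and Irs2 in 4 (0.0996 to 0.429), DESeq2 among them for all 3 and edgeR for the others.

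**Figure D5:**
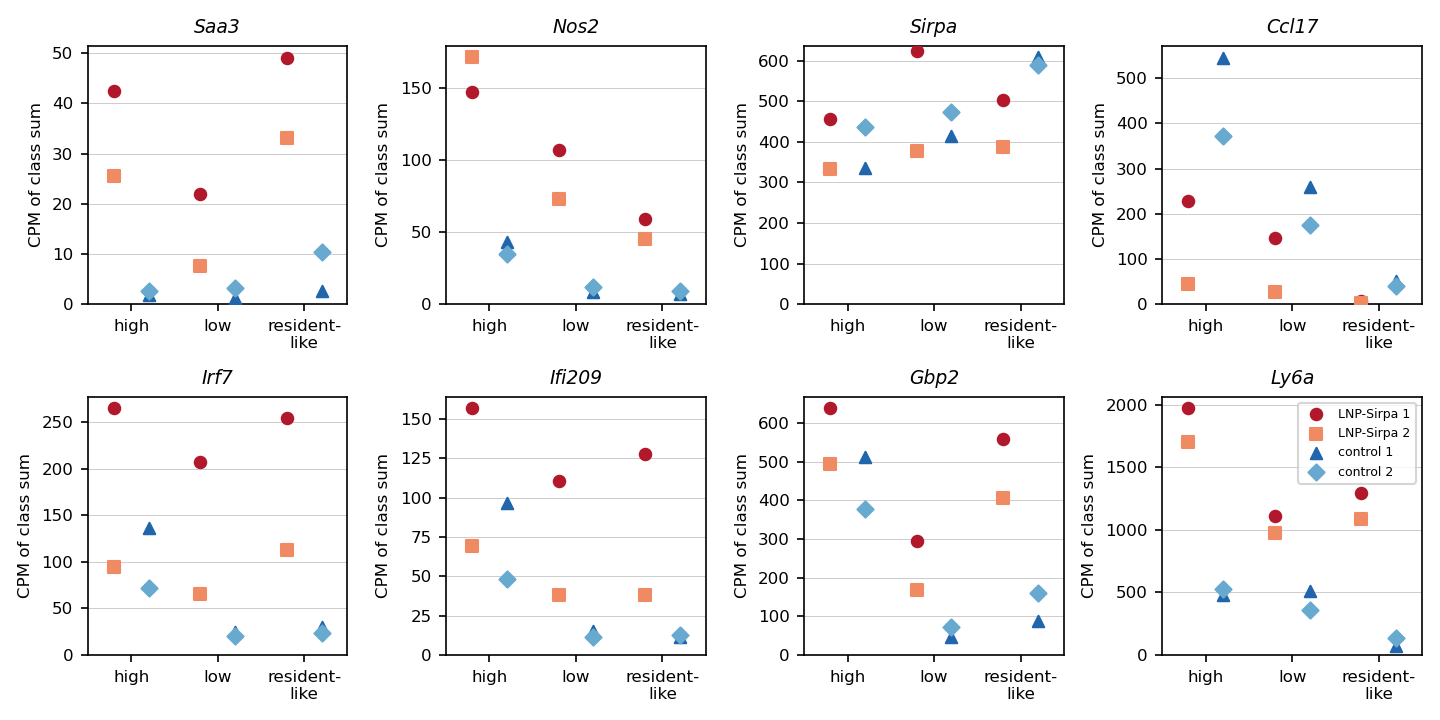
CPM of 8 genes in members (high), interferon-low (low) and resident-like macrophages, 1 symbol per library. Irf7, Ifi209 and Gbp2 of the control libraries are higher in members than in the other classes, Ly6a is higher in both LNP-Sirpa libraries in every class, and Sirpa overlaps between the groups in members.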

How the data were processed

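Single-cell RNA of CD45+ cells was captured with a DNBelab C Series droplet kit and sequenced on a DNBSEQ-T7, per the labels' protocols. As deposited, the values are UMI counts, whole numbers for each gene in each cell, from PISA 1.0 per the file headers. The submitters' processing notes name STAR 2.5.1b and GRCm39. How cells were called, and which annotation was used, is not given in the sources used here. The 4 oligo libraries were not analysed here.

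The members and the gene lists were chosen with earlier results of these data known. All barcodes, each with at least 1000 UMIs, were used. Scrublet in scanpy 1.11.5 marked 1 barcode at its automatic threshold and did not work as a caller, so doublets were kept, and the 5% with the highest scores were left out as an alternative; they were 2.99% and 5.55% of LNP-Sirpa members and 0.0% and 4.08% of control members. UMIs were summed per library and class and tested by edgeR's robust quasi-likelihood fit (version 4.0.16, R 4.3.3) after TMM scaling and filterByExpr, with Benjamini-Hochberg adjustment over all genes and a threshold of 0.05. Interactions had the library as a block. DESeq2 1.42.0 was an alternative. On simulated counts with known changes, the comparison within members recovered 17.6% of genes changed by 1 and 67.4% of those changed by 2 on the log2 scale. The interaction recovered 31.6% and 72.5% with interferon-low and 35.0% and 76.3% with resident-like macrophages. Shares carry 95% Wilson intervals. A count of 0 allows 3 barcodes. Scripts used Python 3.11.15, numpy 2.4.6, pandas 2.3.3, scipy 1.17.1 and matplotlib 3.10.9.

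Named genes are the rule's genes, Calhm6, Slfn5, Sirpa and Cd47; the 10 largest rises and falls and up to 4 members of each list past the threshold; the 5 largest interactions in each direction; the 15 genes with the largest lowest ratio of members over interferon-low macrophages; and the most abundant members of lists where none passed. Ranked genes needed a mean of 50 CPM. Other genes were named after their values were seen.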

Additional observations from a re-analysis of the deposited data

Results flagged for a closer look

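The values here are the effect of LNP-Sirpa in members minus its effect in another macrophage class, on the log2 scale. They passed edgeR's quasi-likelihood test of that difference. Their sign is not the direction of change in members, where Ly6a was higher with LNP-Sirpa and Ccl17 lower. Against interferon-low macrophages the effect in members was higher for the mast cell genes Mcpt2 (5.952), Cpa3 (4.034), Cma1 (3.259), Tpsb2 (2.8) and Mcpt4 (2.773). It was lower for the interferon-induced genes Irf7 (-1.588), Ifi209 (-1.58), Gbp2 (-1.486), Slfn1 (-1.357) and Ifi211 (-1.204). All 5 mast cell genes and Gbp2 lost the threshold with barcodes thinned before the rule, and Gbp2, Slfn1 and Ifi211 without control replicate 1.

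Against resident-like macrophages the effect in members was higher for the chemokine Ccl17 (1.585), the calcium channel gene Cacna1d (1.006), Osbpl8 (0.9766), Hivep2 (0.9753) and the insulin receptor substrate Irs2 (0.9089). It was lower for Irf7 (-1.96), Ifi206 (-1.9), Ifi209 (-1.869), Ly6a (-1.71) and Slfn1 (-1.69). Irf7, Ifi209 and Slfn1 are in both sets. Ccl17, Cacna1d, Osbpl8, Hivep2, Irs2, Ly6a, Ifi209 and Slfn1 each lost the threshold against resident-like macrophages under at least 1 alternative, and Irf7 and Ifi206 under none of those run. The interferon floor of the rule applies to members in each of these contrasts, and its part was not tested.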

How the results depend on the processing

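The share of members kept its direction in all 10 alternatives. Genes higher in LNP-Sirpa members numbered 2, against 12 with barcodes thinned before the rule, 26 with DESeq2, 133 with no filter on low counts, 8 with sums thinned to equal depth, 0 in Cxcl9-led and 0 in Ifit/Rsad2-led members alone, both chosen after seeing the data, and 0 to 180 without 1 library. Genes lower numbered 0, against 1 with an interferon threshold of 5, 2 thinned before the rule, 5 with DESeq2, 44 without the filter, 2 at equal depth and 0 to 120 without 1 library. Without control replicate 1 the unadjusted counts were 303 higher and 251 lower, and without control replicate 2 they were 742 and 343. With the replicate number as a block, 20 were higher and 19 lower, and interactions had no such fit. Over all genes tested, the deviations of same-numbered members' sums had a correlation of 0.0062. This single value cannot show whether the numbers pair samples, since control replicate 1 held only 58 members. Ifit2, Ifit3 and Rsad2 were lower in replicate 2 than in replicate 1 of both groups.

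Interactions with interferon-low macrophages numbered 19 higher, against 5 thinned before the rule, 5 with DESeq2 and 12 to 41 without 1 library, and 32 lower, against 12 with DESeq2 and 9 to 71. Interactions with resident-like macrophages numbered 19 higher, against 7 and 32 at thresholds of 5 and 12, 37 thinned before the rule, 35 without the highest doublet scores, 2 with DESeq2, 12 with DESeq2 size factors, 60 without the filter and 10 to 191 without 1 library. Lower ones numbered 39, against 23 at a threshold of 5, 62 without the highest doublet scores, 61 without the filter and 34 to 158 without 1 library. The cause was not tested. Control replicate 1 had the fewest members, 58, and sums thinned to equal depth gave more calls than full sums (8 higher and 2 lower).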
